A study of Mus musculus with 4 samples.

Results

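Type I interferon genes and interferon-stimulated genes were examined in mouse middle ears after exposure to diesel exhaust particles (DEPs), a carbon-based component of air pollution that carries polycyclic aromatic hydrocarbons. The 43 members were chosen by gene symbol, from ligands and receptors to the antiviral genes that interferon induces, and stand beside 25694 genes tested in all. A probe could be matched through its RefSeq accession for 41 members. Of these, 40 had ratios enough for a test and 39 were well above background in both dyes on all 4 arrays. No probe could be matched to Mx1 and Mx2, the myxovirus resistance GTPases. The probe for Ifnb1 had a ratio on 1 array, where a test needed 3, and was not well above background in either dye on any array.

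On each of the 4 arrays, an ear extract labelled DEP carried the red dye Cy5 (here the DEP channel), and one labelled control carried the green dye Cy3 (the control channel). The 9 mice of the study were male BALB/c, between 6 and 10 weeks old. The RNA came from temporal bone tissue around and in the middle ear, taken at day 14 from mice that had breathed DEPs in 5 daily sessions of 1 h. The labels list the control ears as untreated, and they list this under the Cy5 channel, so the direction below follows the source name given for each dye. The number of mice behind an extract is not given in the sources used here, nor whether the 4 control extracts were separate. The dyes were not swapped, so that dye and exposure cannot be told apart. Genes that mark middle ear and airway epithelium were above background for 10 of 10 listed, and so were 12 of 12 genes of neurons and 9 of 9 tested genes of neutrophils. In such mixed tissue, fewer cells of a type and less RNA per cell cannot be told apart.

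Type I interferons are cytokines that cells release on sensing foreign or misplaced nucleic acid. They bind a receptor made of Ifnar1 and Ifnar2, and the receptor activates a complex with Stat2 and Irf9 that enters the nucleus and binds the interferon-stimulated response element (ISRE) before its target genes. The targets block viral entry, translation and replication, and several of them (Irf7, Isg15, Usp18) feed back on the pathway itself. In mucosal linings such as the middle ear this is one of the first lines of defence against infection.

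A few promoters are printed because their genes carry the results below. In 250 bases before the gene start (RefSeq, build GRCm38.p6), 14 of the 32 members with a promoter in the table held the ISRE core on either strand (GAAA, then NN for any bases, then GAAA, or its reverse complement TTTC, NN, TTTC), which is 43.8%, against 3.46% of all genes in the table. The gamma-activated site TTCNNNGAA, an element of interferon-responsive promoters, was found in 7 of 32 members (21.9%) against 8.13% of all genes. Capitals mark both motifs. The matches in Isg15 overlap one another, and in Bst2 the gamma-activated site shares bases with the first ISRE match. Isg15 and Bst2 are the members with the lowest mean ratios, Ifit1 is the one that varied most between arrays, and Ifna1 is the ligand.

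Isg15 (chr4:156200819-156201068, minus strand): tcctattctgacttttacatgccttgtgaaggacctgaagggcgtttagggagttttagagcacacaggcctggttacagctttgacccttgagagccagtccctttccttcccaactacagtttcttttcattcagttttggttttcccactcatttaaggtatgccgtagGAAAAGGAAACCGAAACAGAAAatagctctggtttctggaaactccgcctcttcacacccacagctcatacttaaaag
Bst2 (chr8:71537473-71537722, minus strand): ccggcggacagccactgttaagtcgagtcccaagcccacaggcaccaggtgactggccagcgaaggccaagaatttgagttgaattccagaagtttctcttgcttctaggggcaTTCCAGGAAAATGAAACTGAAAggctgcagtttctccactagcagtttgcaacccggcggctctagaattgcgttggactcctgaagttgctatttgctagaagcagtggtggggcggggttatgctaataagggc
Ifit1 (chr19:34640639-34640888, plus strand): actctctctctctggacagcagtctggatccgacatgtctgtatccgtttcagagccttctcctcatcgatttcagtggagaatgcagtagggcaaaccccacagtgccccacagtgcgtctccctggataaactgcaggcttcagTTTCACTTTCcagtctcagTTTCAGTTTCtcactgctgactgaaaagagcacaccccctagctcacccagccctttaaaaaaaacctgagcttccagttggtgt
Ifna1 (chr4:88849837-88850086, plus strand): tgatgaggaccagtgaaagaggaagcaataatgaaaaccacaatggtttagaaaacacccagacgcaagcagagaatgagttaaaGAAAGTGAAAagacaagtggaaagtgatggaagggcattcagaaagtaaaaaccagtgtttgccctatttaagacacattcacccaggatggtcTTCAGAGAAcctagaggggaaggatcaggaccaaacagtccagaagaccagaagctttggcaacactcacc

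The ISRE matches closest to the gene start lay 66 bases before it in Isg15, 124 in Bst2, 85 in Ifit1 and 165 in Ifna1. Shorter stretches around the match are given for other members, to show how the element recurs across the families.

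Ifit3 (chr19:34583358-34583431, plus strand): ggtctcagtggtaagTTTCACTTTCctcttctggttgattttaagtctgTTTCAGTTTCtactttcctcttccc
Rsad2 (chr12:26456548-26456587, minus strand): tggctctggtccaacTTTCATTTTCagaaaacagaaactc
Oas1a (chr5:120907526-120907560, minus strand): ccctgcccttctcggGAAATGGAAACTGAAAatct
Irgm1 (chr11:48871421-48871465, minus strand): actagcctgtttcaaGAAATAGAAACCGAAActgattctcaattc
Gbp3 (chr3:142559984-142560029, plus strand): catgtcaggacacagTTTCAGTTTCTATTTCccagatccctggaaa
Gbp2 (chr3:142620589-142620628, plus strand): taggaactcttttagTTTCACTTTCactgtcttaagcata

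The members as a group lay close to equality between the channels. Ratios are log2 values, DEP channel over control channel, so that 1 is a 2-fold difference. The median over the 40 tested members was 0.03, the same as the 0.03 over all genes tested, with 24 members higher and 16 lower, where 54.2% of all genes were higher. This split turned to 16 higher and 24 lower after another background correction (normexp) with loess, and to 32 higher and 8 lower with normexp and median centring. Among the 39 members measured in full, the mean ratios ran from -0.60 for Isg15 to 0.33 for Trim30a, which is from 0.66-fold to 1.25-fold, and 35 of them were within 0.3 of 0. A mean past 2-fold was found for 0 members, against 6.75% of all genes and 577 of the 18341 genes measured in full. After Benjamini-Hochberg adjustment over all probes, limma's moderated test called 0 members at an adjusted p under 0.05, as it called 0% of all genes, and a test of the same ratios without moderation called 0 as well. The smallest adjusted p of a member was 0.134. At an unadjusted p under 0.05, 3 members passed, Ifna1 higher and Isg15 and Bst2 lower, against 18.7% of all genes, 10% higher and 8.66% lower. For Ifna1 the study gives the opposite direction, on its arrays and by quantitative PCR. It likewise gives the opposite direction on its arrays for Slc1a2, a glutamate transporter and astrocyte marker. Slc1a2 had a mean ratio of -1.61 ± 0.98 (SD) and was lower on 4 of 4 arrays, in a list where 6 of 6 astrocyte genes had means below 0, as had 12 of 12 genes of neurons. On arrays 1 to 4 the astrocyte list had median ratios of -2.37, -0.85, -0.07 and 0.21. The neuron list had -2.27, -1.64, -0.57 and 0.25. Genes other than Ifna1 and Slc1a2 were not compared with the study in direction. Without moderation 4 members passed, and the share of all genes that passed in that test was not counted. Isg15 did not pass there, nor without array 1, 3 or 4, Bst2 did not pass without array 3, and with normexp and median centring none of Ifna1, Isg15 and Bst2 passed.

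The 95% interval of the mean ratio from limma lay wholly inside 2-fold in either direction for 37 of the 40 members, against 70.3% of all genes, and for 37 of the 39 measured in full, against 82.8% of genes measured as fully. The members whose interval reached past 2-fold were Isg15, Ifit1 and Ifna1. The half-width of the interval had a median of 0.40 on the log2 scale. The same sign on all arrays was found for 7 members, namely Isg15 and Bst2 (lower) and Ifna1, Irf9, Ifih1, Ddx58 and Ifitm3 (higher), against 27.1% of all genes.

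**Figure D1:**
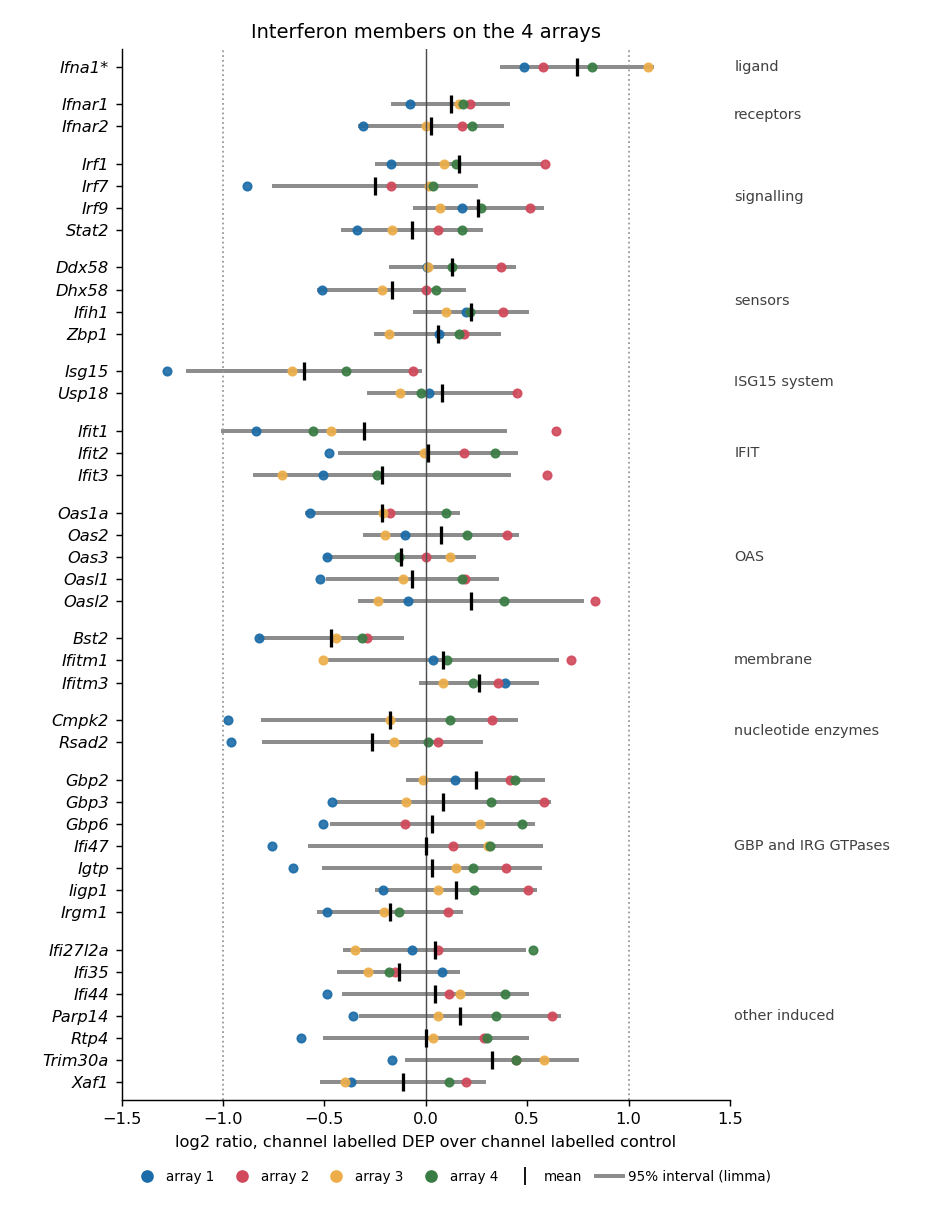
Log2 ratio of the DEP channel over the control channel (horizontal axis) for each tested member, grouped by role. Coloured points are the 4 arrays, black ticks the means and grey bars the 95% intervals from limma; dotted lines mark 2-fold, and the asterisk marks Ifna1, whose control channel was measured on only 2 arrays. Most bars lie between the dotted lines and cross 0, and array 1 is the leftmost point for 27 members.

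**Figure D2:**
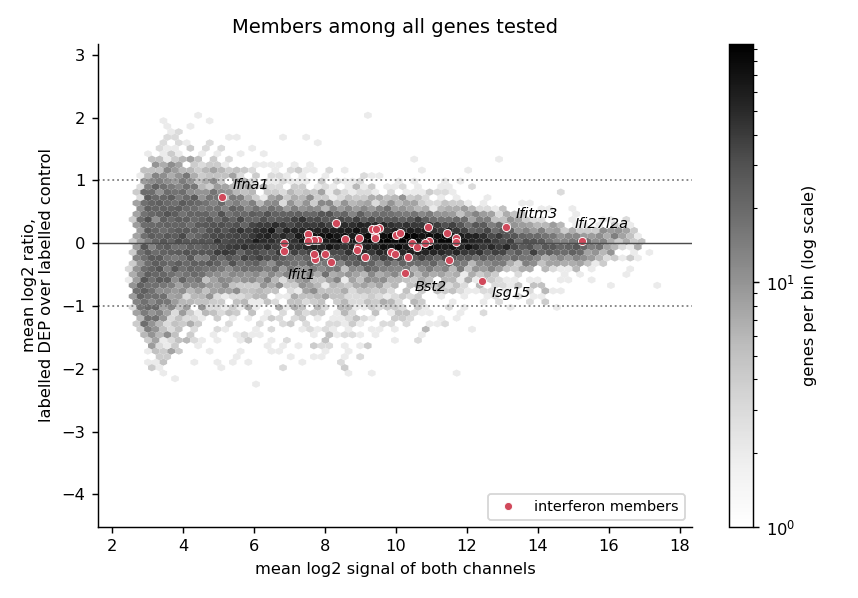
Mean log2 ratio (vertical axis) against the mean log2 signal of both channels (horizontal axis) for all 25694 genes tested, shaded by the number of genes per bin on a log scale, with the 40 members in red. The members lie within the dense band around 0, apart from Isg15 and Bst2 below it and the dim Ifna1 above it.

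Among the ligands, Ifna1, a type I interferon alpha, had log2 ratios of 0.48, 0.58, 1.09 and 0.82 on arrays 1 to 4. All 4 are above 0, and the mean was 0.74 ± 0.27 (SD, n = 4 arrays; standard error 0.14), with an adjusted p = 0.134 from limma and an unadjusted p = 0.0036. Its signal was dim. In Cy5 it was 39.2, 41.0, 48.0 and 49.0 on arrays 1 to 4, and in Cy3 it was 28.0, 27.5, 22.5 and 27.8, in scanner units after normalization. The lowest signal of a probe well above background was between 18.7 and 23.5 in Cy5, but 42.2 and 37.0 in Cy3 on arrays 3 and 4, where Ifna1 did not pass it. The control channel was therefore measured on 2 arrays only and the size of the ratio is not settled. After normexp correction the ratio was 0.19 with loess and 0.06 with median centring. Genes seen, like Ifna1, in Cy5 on all arrays and in Cy3 on some of them number 1679, and their median ratio was 0.29, with an upper quartile of 0.59. The part of this detection pattern in the Ifna1 ratio was not tested.

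Other interferon alpha genes were in the list of further pathway genes and lay on both sides of 0. Ifna2 had a mean ratio of 1.09 ± 0.38 (SD, n = 4 arrays) and Ifna5 one of 0.98 ± 0.26, with adjusted p values of 0.112 and 0.107 from limma. Ifna4 had -0.81 ± 0.50 on 3 arrays and Ifna11 -0.31 ± 0.29 on 3. Cy3 was well above background on 0 arrays for Ifna2 and on 1 for Ifna5, while Ifna4 and Ifna11 were at background in both dyes throughout. The interferon alpha genes are near-identical copies, so a probe for one may bind the transcripts of another, and all of these values are uncertain.

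The receptor chains lay near equality. Ifnar1 had ratios of -0.08, 0.22, 0.16 and 0.18 on arrays 1 to 4, with a mean of 0.12 ± 0.13 (SD), an interval from -0.16 to 0.41 and an adjusted p = 0.575 from limma. Its 2 other probes gave 0.15 and 0.25. Ifnar2 had -0.31, 0.18, 0.00 and 0.23, a mean of 0.03 ± 0.24 and an interval from -0.32 to 0.37 (adjusted p = 0.93). Both chains were below 0 on array 1 and above it on the other arrays. With normexp and median centring their means were 0.37 and 0.35.

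The signalling members were measured in full in both dyes. Irf9, the DNA-binding part of the complex that reads the ISRE, had ratios of 0.18, 0.51, 0.07 and 0.27, all above 0, with a mean of 0.26 ± 0.19 (SD, n = 4; adjusted p = 0.326 from limma). With normexp and median centring the mean of Irf9 was 0.55 and that of Irf1 0.54. Both passed the adjusted threshold there, where 12.2% of all genes were called higher. With normexp and loess they were 0.20 and 0.16, and neither passed. Stat2, the partner of Irf9, had -0.34, 0.06, -0.17 and 0.18 and a mean of -0.07 ± 0.23 (adjusted p = 0.799). Irf1, an activator of both interferon and its targets, had -0.17, 0.59, 0.09 and 0.15 and a mean of 0.16 ± 0.32 (adjusted p = 0.594), which was 0.022 without array 2 and 0.28 without array 1. Irf7, which amplifies interferon alpha production, had -0.88, -0.17, 0.02 and 0.03, with a mean of -0.25 ± 0.43 (adjusted p = 0.516), which was -0.04 without array 1. On array 1 its signal was 125 in the DEP channel and 230 in the control channel, whereas on arrays 3 and 4 the channels differed little (230 and 227, then 229 and 224). None of the 4 signalling members had an unadjusted p under 0.05.

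The sensors of nucleic acid are themselves induced by interferon. Ddx58 (RIG-I) had a mean ratio of 0.13, Ifih1 (the sensor of long double-stranded RNA) 0.22, Dhx58, their regulator, -0.17 and Zbp1, a sensor of Z-form nucleic acid, 0.06. Ifih1 was higher on 4 of 4 arrays with an SD of 0.12, the smallest of any member, and an adjusted p = 0.333 from limma. Intervals of all 4 sensors crossed 0.

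Isg15, a ubiquitin-like modifier that is attached to other proteins after interferon exposure, had the lowest mean ratio of the members. Its ratios were -1.28, -0.07, -0.66 and -0.40 on arrays 1 to 4. The mean was -0.60 ± 0.51 (SD, n = 4 arrays; standard error 0.22), or 0.66-fold with an interval from 0.44 to 0.98, lower on 4 of 4 arrays. The adjusted p was 0.257 from limma and the unadjusted p 0.042. A second probe for Isg15 gave -1.41, -0.27, -0.71 and -0.60, with a mean of -0.75 ± 0.48 (adjusted p = 0.192), so that both probes ordered the arrays alike. The signal was 2915, 5881, 4618 and 5114 in the DEP channel and 7066, 6155, 7309 and 6731 in the control channel. The 4 values of the DEP channel all lay below the 4 of the control channel, but the share of all genes that do so was not counted. Without array 1 the mean was -0.37, and after normexp correction with median centring it was -0.20. Usp18, the protease that removes Isg15 from proteins and dampens receptor signalling, had a mean of 0.08.

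Bst2 (tetherin), which holds budding virus at the cell surface, gave ratios of -0.82, -0.29, -0.45 and -0.31. Its mean was -0.47 ± 0.25 (SD, n = 4 arrays; standard error 0.14), or 0.72-fold with an interval from 0.57 to 0.92, lower on 4 of 4 arrays, with an adjusted p = 0.201 and an unadjusted p = 0.019 from limma. The signal was 768, 1050, 1259 and 1183 in the DEP channel and 1356, 1283, 1715 and 1470 in the control channel. These groups did not overlap either, though narrowly (1259 against 1283), and here too the share of all genes was not counted. With median centring after normexp the mean was -0.15. The other membrane members had means above 0. Ifitm3, which blocks entry of virus through endosomes, had 0.39, 0.35, 0.08 and 0.23, a mean of 0.26 ± 0.14 and an adjusted p = 0.293, higher on 4 of 4 arrays, and 0.77 with normexp and median centring, where it passed the adjusted threshold. With normexp and loess Ifitm3 had 0.28 and did not pass that threshold. Its relative Ifitm1 had a mean of 0.09 ± 0.50.

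**Figure D3:**
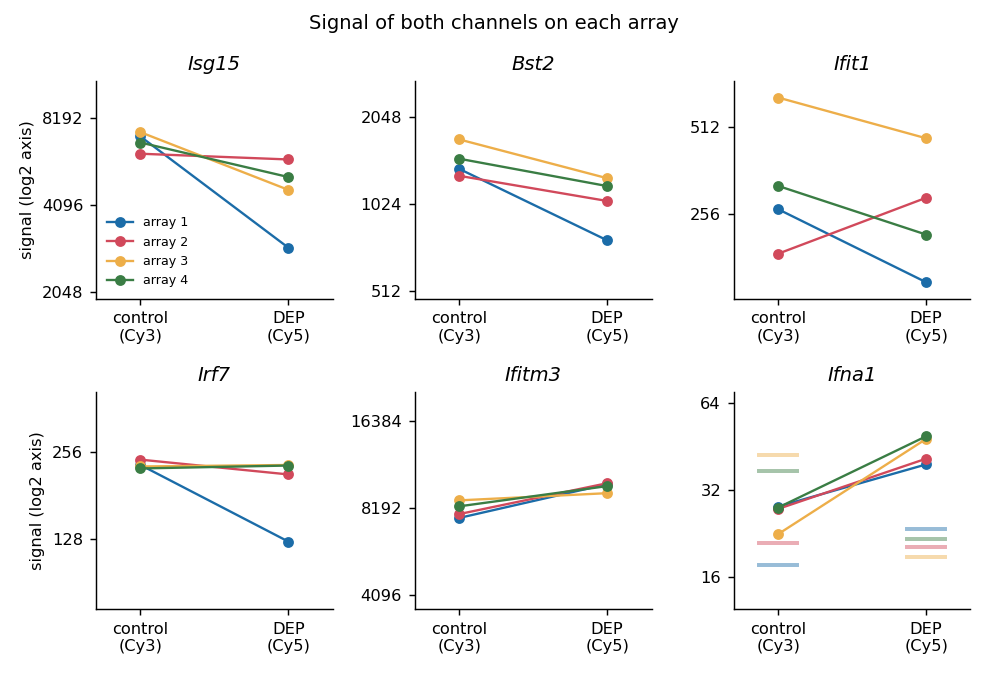
Normalized signal (vertical axis, log2 scale spanning the same range in each panel) in the control channel and the DEP channel, joined for each of the 4 arrays, for 6 members. Short bars in the Ifna1 panel are the lowest signals of a probe well above background on each array. Isg15 and Bst2 are lower in the DEP channel on all 4 arrays, Irf7 on array 1 mainly, and Ifit1 is higher on array 2 alone.

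The IFIT proteins bind viral RNA and block its translation, and Ifit1 and Ifit3 had the largest SDs of the members. Ifit1 had ratios of -0.84, 0.64, -0.47 and -0.56, with a mean of -0.31 ± 0.65 (SD, n = 4; adjusted p = 0.566 from limma). Ifit3 had -0.51, 0.60, -0.71 and -0.24, with a mean of -0.22 ± 0.57 (adjusted p = 0.647). Both were above 0 on array 2 alone, and the SD exceeded the mean in each. Without array 2 the means were -0.62 and -0.49, and without array 1 they were -0.13 and -0.12. Ifit1 ranged from 148 to 466 in the DEP channel and from 186 to 645 in the control channel, so the groups overlapped widely. The highest signals of Ifit1 and Ifit3 in both channels were on array 3. Ifit2 had a mean of 0.01 ± 0.36.

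The oligoadenylate synthetases, which switch on RNA decay in infected cells, had a median of -0.07 over 5 genes. Their means were -0.22 for Oas1a, -0.12 for Oas3, -0.07 for Oasl1, 0.07 for Oas2 and 0.22 for Oasl2. Of the nucleotide enzymes, Rsad2 (viperin), which makes a chain-terminating nucleotide, had -0.26 ± 0.47 and Cmpk2, encoded beside it, -0.18 ± 0.57. For Cmpk2 the ratios were -0.98, 0.33, -0.18 and 0.12, again lowest on array 1. None of these 7 genes had an unadjusted p under 0.05.

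The interferon-inducible GTPases of the GBP and IRG families, which act on the membranes around intracellular pathogens, had a median of 0.03 over 7 genes, with 5 higher and 2 lower. Gbp2 had the highest mean, 0.25 ± 0.22, followed by Iigp1 at 0.15 and Gbp3 at 0.08. Igtp had 0.03, Ifi47 -0.00 and Irgm1 -0.18. The probes for Gbp6 differed. The brighter gave 0.03 ± 0.43 and the other -0.42 ± 0.33, with values below 0 on 3 of 4 arrays. The dimmer probe also gave the other sign for Irgm1 (0.07) and Iigp1 (-0.04), as it did for the sensor Zbp1 (-0.16). Families of similar sequence are in this group, and a probe may not separate their members.

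Among the remaining induced genes, Ifi27l2a had a mean signal of 39219 for DEP and 38069 for control. Its ratios were -0.07, 0.06, -0.35 and 0.53, with a mean of 0.04 ± 0.37 (SD, n = 4; adjusted p = 0.906 from limma). With normexp and median centring the mean was 0.76 and passed the adjusted threshold, but with normexp and loess it was 0.045 and did not. Among the control extracts alone its signal ranged from 27790 to 64370. Trim30a, an inhibitor of inflammatory signalling, had 0.33 ± 0.34 (adjusted p = 0.346) and was below 0 on array 1 only. Parp14 had 0.17, Ifi44 0.05, Rtp4 0.00, Xaf1 -0.11 and Ifi35 -0.13.

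The members' ratios differed between arrays. The median ratio over the members was -0.36 on array 1, 0.25 on array 2, -0.06 on array 3 and 0.18 on array 4, while the median over all genes lay between -0.02 and 0.08. On array 1, 30 of 40 members were below 0, against 51.3% of all genes, and on array 2, 6 of 40 were below 0, against 41.5% of all genes. The lowest of the 4 ratios was on array 1 for 27 members and on array 3 for the other 13, where all genes had 36.8% and 21.4%. In the DEP channel, 37 of the 39 members measured in full lay below their own mean over the arrays on array 1, with a median deviation of -0.45, and the other 3 extracts lay between 0.11 and 0.15. In the control channel, array 3 was the highest, at a median deviation of 0.24, with 7 of 39 below their mean. Median deviations over all genes measured as fully were between -0.02 and 0.04.

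Marker lists of other cells differed between the arrays as well. On array 1 the median ratio was -2.37 for astrocytes (6 genes), -2.27 for neurons (12), -1.13 for neutrophils (9), -0.78 for erythroid cells (7), -0.62 for B cells (7), -0.56 for plasmacytoid dendritic cells (5 genes), a cell type known for making interferon alpha, and -0.26 for macrophages and monocytes (7). It was -0.11 for T cells and -0.04 for endothelium. On array 2 it was -1.64 for neurons, 0.01 for neutrophils and 0.12 for plasmacytoid dendritic cells. That neutrophil value is the ratio of Ltf, which is also in the list of middle ear and airway epithelium. Array 3 had the members at -0.06, where neutrophils were at 0.59 and plasmacytoid dendritic cells at 0.47, and array 4 had neurons at 0.25. Other lists lay nearer to the members on some arrays. Macrophages and monocytes were at 0.07, 0.19 and 0.36 on arrays 2 to 4. On array 4 the members were at 0.18, neutrophils at 0.15 and middle ear and airway epithelium at -0.42. Genes of bone and cartilage (6 tested) were at -0.27, 0.27, 0.01 and 0.43 on arrays 1 to 4, those of middle ear and airway epithelium at -0.22, 0.30, -0.23 and -0.42, and those of endothelium at -0.31 on array 3. The summed signal of the neutrophil list ranged from 243651 to 508565 in the DEP channel and from 303838 to 562430 in the control channel. That of the plasmacytoid list ranged from 47712 to 74822 and from 57654 to 93358. Cox6a2, which striated muscle also expresses, made up 45958 and 57637 of those highest sums, and the list's median on array 3 was its ratio of 0.47. Siglech, a surface receptor in the list, was at -0.47 on that array by its brighter probe and at 0.78 by the other. Pacsin1 is also a gene of neurons, so this list does not measure plasmacytoid dendritic cells alone. All 5 of its genes and 9 of 9 tested neutrophil genes were well above background in both dyes on every array, and none of the tested markers of the lists for astrocytes, neurons, neutrophils, erythroid cells, B cells and macrophages was at background throughout. The part of cell composition in the members' ratios was not tested. With array 1 left out, the median over members was 0.13 and limma still called 0 members.

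**Figure D4:**
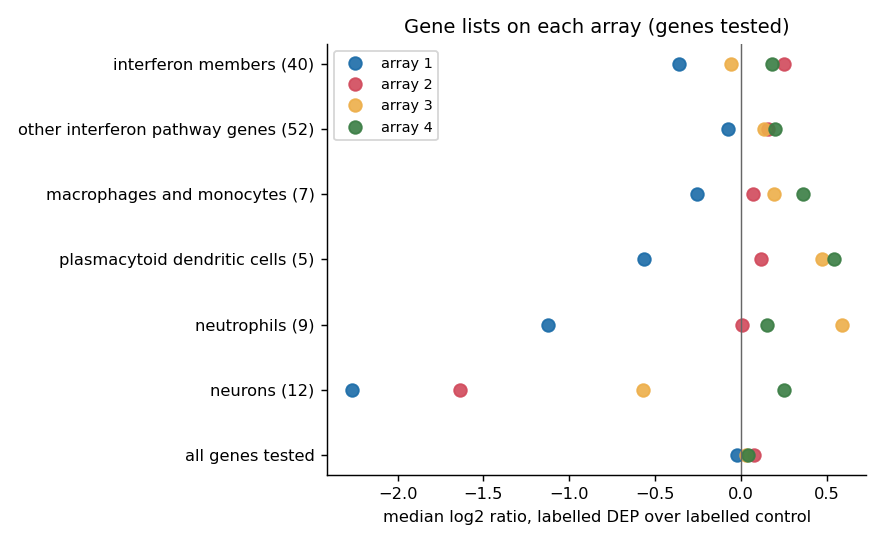
Median log2 ratio of the DEP channel over the control channel (horizontal axis) on each of the 4 arrays for the members, other interferon pathway genes, 4 marker lists and all genes tested. The number of genes tested is in brackets. All lists are lowest on array 1, where neurons and neutrophils lie far below 0, while the median of all genes stays near 0 on every array.

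Of 59 other listed genes of the pathway, among them the kinases Jak1 and Tyk2, the adaptor Mavs and the chemokine Cxcl10, 52 were tested and 44 measured in full. Their median ratio was 0.14, with 42 higher and 10 lower, where all genes had a median of 0.03 and 54.2% higher, and limma called 0 at an adjusted p under 0.05. At an unadjusted p under 0.05 there were 7 higher and 1 lower (Ifna2, Ifna5 and Ifna4 among them), where all genes had 10% higher and 8.66% lower. Of these, 5 higher and 0 lower were among the 44 measured in full, and the share over all genes measured as fully was not counted. These 5 were Socs1, a feedback inhibitor of the receptor kinases, at 0.38 ± 0.23 (SD, n = 4 arrays), Mavs, the adaptor of Ddx58 and Ifih1, at 0.36 ± 0.24, Eif2ak2, the kinase that stops translation on double-stranded RNA, at 0.35 ± 0.25, the nuclear body protein Sp110 at 0.34 ± 0.18 and the antibody receptor Trim21 at 0.29 ± 0.14. Each was above 0 on 4 of 4 arrays, with adjusted p values between 0.244 and 0.266 from limma. They were picked by their p over these same arrays, so the shared sign is no separate support. With the ratios centred on each array's median, Sp110 alone of the 5 kept an unadjusted p under 0.05. It had 0.049 from limma, and the others had between 0.051 and 0.060. Centring left the ratios at 0.35 for Socs1, 0.33 for Mavs, 0.32 for Eif2ak2, 0.31 for Sp110 and 0.27 for Trim21. Without array 2 none of the 5 kept a p under 0.05. The mean of the probes for Sp110 was 0.24 and did not pass. With normexp and median centring 12 of the 52 were called, against 12.2% of all genes called higher. Cxcl9 and Cxcl10, chemokines induced by interferon, had means of 0.33 ± 1.04 and 0.09 ± 0.43. Jak1 was at 0.02 and Tyk2 at -0.04.

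The members with an ISRE match in the promoter had a median ratio of -0.15 over 14 tested genes, and those with a promoter but no match had 0.05 over 17. The first group holds the lowest means (Isg15, Bst2, Ifit1 and Rsad2) and also the highest, Ifna1 at 0.74 and Trim30a at 0.33. This is a description of the means and was not tested.

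With normexp correction and each array centred on its median, 6 members passed an adjusted p under 0.05 in limma, Irf1, Irf9, Ifih1, Ifitm3, Ifi27l2a and Gbp2, all higher, against 12.2% of all genes called higher. At an unadjusted p under 0.05 there were 15 members, all higher, against 29.5% of all genes that were higher. In that setting the median over all genes was 0.11 and that over the members 0.22. With normexp and loess, 0 members were called.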

How the data were processed

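Total RNA was labelled and hybridised to 4 two-colour Agilent arrays on 1 slide. The authors quantified the spots with Agilent Feature Extraction 10.10.1.1. The deposited intensity of each channel had its background subtracted and its dyes normalized by that software, and the deposited log10 ratio is Cy5 over Cy3. A table of the authors' log10 ratios holds the same values rounded, and 0 columns were left without a sample.

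Ratios were converted to log2. Control spots, outlier-flagged spots (164 to 274 per array) and those lacking a ratio were dropped, and spots of a probe were averaged. Accessions named 27655 of 39429 probes (RefSeq, GRCm38.p6, which may not be the build behind the array). A probe needed 3 ratios, which left 31577, and a gene was read by its brightest tested probe. limma 3.58.1 under R 4.3.3 fitted an intercept with eBayes (two-sided), and p-values were adjusted by Benjamini-Hochberg across every probe in the fit. Signals by channel were put on 1 scale with Aquantile normalization. Probes well above background made up 65.4% to 68.9% in Cy5 and 59.2% to 67.9% in Cy3, and the number of arrays limits the precision. The fit was tested on simulated data. Python 3.11.15 was used for tables and plots.

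Genes given with every array's value were the ligands, receptors and signalling members, members measured in full with an unadjusted p under 0.05, the 3 with the largest SD and the 3 brightest; single further genes were named after their values were seen. Members and lists were chosen with earlier results of these data known. The labels call the samples biological replicates; p-values measure the spread between these arrays. Alternatives were normexp (offset 50) with loess or median centring, median centring of the deposited ratios, the deposited table, filters on dim probes, flagged spots kept, eBayes with a trend, an ordinary test, the mean of a gene's probes, and each array left out. The number of members with an interval inside 2-fold was added after seeing the data.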

Additional observations from a re-analysis of the deposited data

How the results depend on the processing

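Of the values of 19 genes, 71 of 76 with 1 array left out and 177 of 189 under other settings kept their direction and side of the threshold. Members past 2-fold numbered 0 in every setting run, and members with a 95% interval inside 2-fold, 37 as reported, numbered between 33 and 39, with 34 in the test without moderation. Normexp with median centring moved the most: 6 members called in place of 0, 15 in place of 3 at an unadjusted p under 0.05, and 12 of 52 other pathway genes called in place of 0, where 12.2% of all genes were called higher. There Stat2 turned to 0.29 and Cmpk2 to 0.072, while Irf1 (0.54), Irf9 (0.55), Ifi27l2a (0.76), Ifitm3 (0.77), Socs1 (0.52), Mavs (0.71), Eif2ak2 (0.48) and Sp110 (0.96) passed the threshold. The median over all genes was 0.11 in that setting, against 0.03 as reported. Ifnar2, 0.025 as reported, turned to -0.049 with normexp and loess and to -0.0039 with the deposited ratios centred. The cause was not tested.

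With 1 array left out, members at an unadjusted p under 0.05 ranged from 1 without array 3 (Ifna1) to 5 without array 2. The share of all genes at that p was not counted in these fits. Members called stayed at 0. The median over members ranged from -0.08 without array 4 to 0.13 without array 1. The split of the members, 24 higher as reported, ranged from 16 higher without array 2 to 28 without array 1. Among the 19 genes followed singly, signs turned for 4. Stat2 ranged from -0.15 to 0.023 (without array 1), Cmpk2 from -0.35 to 0.089 (without array 1), Ifnar2 from -0.043 (without array 4, and -0.026 without array 2) to 0.14, and Ifi27l2a from -0.12 (without array 4) to 0.17. Isg15 ranged from -0.78 without array 2 to -0.37 without array 1, Bst2 from -0.53 to -0.35 and Ifna1 from 0.63 to 0.83. The fit is paired by array, because each ratio already pairs the DEP and control extracts of 1 array. No further block could be added to it. No lower bound of a fold was needed, since no tested member lacked 1 channel on all arrays. Signal over background limits Ifna1 and Ifnb1.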
